A study of Mus musculus with 22 samples.

Results

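Mouse pancreatic tumours given beta-glucan together with anti-CD40 were set against tumours given beta-glucan alone. By their labels the groups differ in the antibody, but they also differed in sequencing depth and acinar reads, given below. The tumours were chosen by treatment label: 5 combination tumours and 6 beta-glucan tumours, 11 of the 22 in the series. All grew from PDA.7940B, a polyclonal ductal adenocarcinoma line derived from KPC mice, an engineered mouse model of pancreatic cancer, and all have the genotype label WT. Beta-glucan tumours received 1 intravenous dose of 1.2 mg, and anti-CD40 tumours (n = 6) 1 intraperitoneal dose of 0.1 mg of the agonist clone FGK45. The combination label names both agents without their doses. Untreated tumours (n = 5) received neither agent, and the treated tumours were taken on day 10. Neither the age of the animals nor the mouse behind each tumour is in the labels, so p-values here cover only the differences among these samples, which may be technical in part.

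CD40 is a receptor of the tumour necrosis factor family on B cells, dendritic cells and macrophages. When T cells present its ligand, or an agonist antibody binds it, it signals through TRAF proteins and NF-kB, and the cell raises antigen presentation and makes cytokines such as interleukin-12. Beta-glucan, a glucose polymer of fungal cell walls, is recognised by Dectin-1 on myeloid cells, which signals through Syk and Card9. Pancreatic ductal adenocarcinoma is known as a tumour with few T cells and many suppressive myeloid cells.

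Between the groups 2013 of 14278 tested genes differed at an adjusted p below 0.05 (14.1%): 926 were higher (6.49%) and 1087 lower (7.61%) in combination than in beta-glucan tumours. Of these, 640 rose and 685 fell by at least 2-fold. Most tested members of the T cell, B cell, plasma cell and class II antigen presentation lists rose, and 8 of 14 gastric-like, 8 of 20 ductal and 5 of 11 squamous epithelium genes fell. The normalized count is the number of reads of a gene divided by a size factor of the tumour. Fold changes are differences of group means of log2(normalized count + 1), the ± after one is its standard error, and a fold is 2 to that power. Tests are limma with Benjamini-Hochberg adjustment over all tested genes. The counts of each gene list below stand against these shares of all tested genes. At an unadjusted p below 0.05, limma gave 4054 of the 14278, the background for the unadjusted counts of lists. In 1266 of the called genes, no combination tumour overlapped any beta-glucan tumour. Over all tested genes, called or not, all combination tumours lay above all beta-glucan tumours in 811 (5.68%) and below them in 828 (5.8%).

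Depth and normal pancreas differed between the groups. Combination libraries held 12.2 to 18.8 M reads, against 7.13 to 8.74 M for beta-glucan, so depth and any sequencing batch cannot be told apart from treatment; with reads thinned to the lowest depth, 907 genes were higher and 1061 lower on the authors' size factors, and 124 higher and 1028 lower with equal totals. The pancreatic acinar list (digestive enzymes, 36 genes) took 0.671%, 32.8%, 18.8%, 39.7% and 40.3% of the reads of combination tumours 1 to 5. In beta-glucan tumours 1 to 6 it took 2.71%, 1.30%, 20.4%, 3.37%, 10.6% and 0.682%. Of its 35 tested genes 1 was called, the trypsinogen Prss1 (log2 4.09 ± 1.13, adjusted p = 0.0174; 3 of 6 beta-glucan tumours at 0 reads, so its size depends on the pseudocount). Rescaling every tumour to the same total shifted the median of all genes by -0.48, against 0.01 in the values as deposited, and left 131 genes higher and 1056 lower (11% of calls higher, against 46%). With the acinar and islet genes left out before rescaling, 718 were higher and 1439 lower, 33.3% of calls higher. With the acinar level, the mean log2 value of the tested acinar genes, as a covariate, 710 were higher and 793 lower. Without combination tumours 4 and 5, the most acinar of their group, 304 were higher and 314 lower. Combination tumour 1, with the least acinar RNA, lay above every beta-glucan tumour in 91.9% of the genes called higher and below every one in 90.2% of those called lower, against 23.4% and 20.2% of all tested genes; it was itself part of the calls. In bulk tissue, fewer cells of a type and less RNA per cell cannot be told apart.

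**Figure D1:**
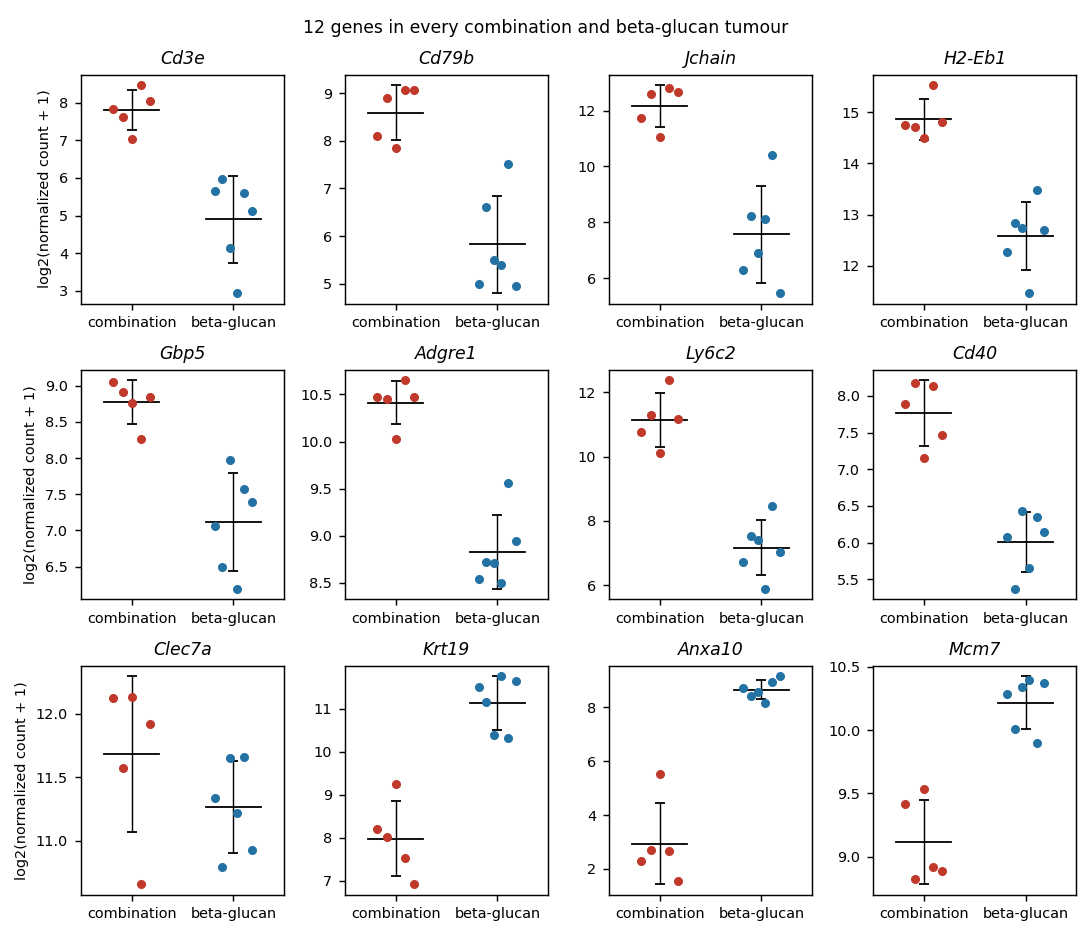
Each panel shows log2(normalized count + 1) of 1 gene in the 5 combination tumours (left, red) and the 6 beta-glucan tumours (right, blue), with the group mean (line) and SD (bars); panels have their own axis range and do not start at 0. The groups do not overlap in any panel except Clec7a.

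The class II antigen presentation genes rose as a complete list, 10 of 10 tested members, with a median log2 fold change of 2.06 against 0.01 for all tested genes. In class II genes a promoter module of an X box, bound by RFX, and a Y box, bound by NF-Y, recruits the coactivator Ciita. The promoters of 4 members that rose are shown because they carry these 2 motifs at close spacing. Capitals mark the X core (CTNGNAAC) and the Y core (GATTGG) found by a search of both strands for X followed by Y within 40 bases. Each line gives 100 bases of the RefSeq promoter table (GRCm38.p6), read on the gene's own strand: H2-Eb1 (chr17:34305743-34305842, plus), H2-DMb1 (chr17:34153064-34153163, plus), H2-Ob (chr17:34238784-34238883, plus) and H2-Aa (chr17:34287838-34287937, minus).
H2-Eb1: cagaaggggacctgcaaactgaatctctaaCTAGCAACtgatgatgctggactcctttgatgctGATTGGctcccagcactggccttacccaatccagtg
H2-DMb1: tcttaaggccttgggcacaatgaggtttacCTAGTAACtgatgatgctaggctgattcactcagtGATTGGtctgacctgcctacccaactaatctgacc
H2-Ob: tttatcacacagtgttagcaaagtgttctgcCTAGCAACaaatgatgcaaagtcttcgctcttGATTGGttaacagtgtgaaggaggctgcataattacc
H2-Aa: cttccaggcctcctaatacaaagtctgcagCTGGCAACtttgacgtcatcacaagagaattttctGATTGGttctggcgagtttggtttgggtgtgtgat
The pair of motifs stands in 4 of the 7 class II promoters in the table (57.1%), and in 36 of the 11129 promoters of tested genes (0.323%). It is also in 1 of 19 type I interferon promoters (5.26%), that of Stat2. Of class I promoters 0 of 11 hold it, and of interferon-gamma response promoters 0 of 17. The letters were chosen after the class II promoters had been read, so the shares are a description.

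H2-Eb1, which encodes a beta chain of the class II molecule, had normalized counts of 27328, 26823, 23010, 47274 and 28752 in combination tumours 1 to 5. In beta-glucan tumours, of which the lowest, median and highest counts are given here and for the genes that follow, it had 2826, 6759 and 11359. The groups did not overlap, with every combination tumour above every beta-glucan tumour, a 4.83-fold difference (log2 2.27 ± 0.35, adjusted p = 0.000414). H2-Ab1, the other classical beta chain, rose 4.41-fold and H2-Aa, an alpha chain, 3.79-fold, with adjusted p = 0.000513 and 0.00059. Cd74, the invariant chain that guards the peptide groove, rose 3.94-fold (adjusted p = 0.00194). H2-DMb1, part of the peptide exchange factor, rose 2.67-fold, and H2-Ob, part of its inhibitor found mainly in B cells, 7.37-fold. For H2-Ob only 2 combination tumours lay above all beta-glucan tumours. Ciita had 68.8, 36.5, 106, 193 and 42.7 in combination tumours, against 18, 19.4 and 27.8 in beta-glucan tumours. This coactivator rose 3.41-fold (adjusted p = 0.0153), without overlap and with combination tumour 4 the highest. Its call was lost without that tumour and with equal totals. Without combination tumours 4 and 5, neither Ciita nor H2-DMb1 was called. With equal totals 6 of the 10 members of MHC class II were called.

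T cell genes rose broadly: 15 of 19 tested members of the T cell identity list rose, none fell, and their median log2 fold change was 2.89. Cd3e, a chain of the T cell receptor complex, had counts of 227, 194, 130.1, 353 and 262 in combination tumours and 6.65, 40.6 and 61.5 in beta-glucan tumours. No combination tumour lay within the beta-glucan range, and all 5 stood above it (log2 2.89 ± 0.55, adjusted p = 0.00142). The costimulatory receptor Cd28 rose 12.3-fold, the surface receptor Cd6 11.4-fold and the kinase Lck 7.25-fold. Cd4, the coreceptor of helper T cells, stood at 176, 237, 160.1, 166 and 329.8 in combination tumours, against 7.6, 30.1 and 92.4 in beta-glucan tumours. Cd8a, of cytotoxic T cells, stood at 348, 281, 168, 74.4 and 253 in combination tumours, against 38.2, 43.4 and 100.3 in beta-glucan tumours. Cd4 rose 6.92-fold (adjusted p = 0.000557) without overlap, and Cd8a 3.79-fold (adjusted p = 0.00334) with combination tumour 4 inside the beta-glucan range. With equal totals 14 of the 19 were still called, and without combination tumours 4 and 5 also 14.

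Effector genes of these cells followed, with 9 of 15 members of the CD8 and cytotoxic effector list higher and a median log2 fold change of 1.99. Ifng, the main effector cytokine of T and natural killer cells, had 82.3, 77.4, 59.2, 25.2 and 87.3 in combination tumours and 1.06, 3.89 and 17.2 in beta-glucan tumours. Each combination tumour stood above the whole beta-glucan range (log2 3.67 ± 0.71, adjusted p = 0.00156). Fasl, the death ligand of killer cells, was called (log2 3.93 ± 0.66), but 4 of 6 beta-glucan tumours held no read of it and its size depends on the pseudocount (1.90 with one of 8). The chemokine Ccl5 rose 11.8-fold, the granule protein gene Nkg7 7.2-fold and Gzma, granzyme A, 4.94-fold. Gzmb, granzyme B, named here after its values were seen, had 6.43, 78, 30.8, 0 and 36.9 in combination tumours, against 3.31, 4.57 and 9.93 in beta-glucan tumours. It did not pass (log2 1.21 ± 0.91, adjusted p = 0.411), with 0 reads in combination tumour 4. Only 1 of 4 tested natural killer genes was called.

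Of 15 inhibitory and regulatory receptor genes 8 rose, with a median log2 fold change of 2.07. Pdcd1, which encodes PD-1, rose 9.95-fold (adjusted p = 0.000469), Btla 8.41-fold and the costimulator Icos 7.2-fold. Foxp3, the defining factor of regulatory T cells, had 16.1, 30.5, 36.7, 50.5 and 25.2 in combination tumours and 0.95, 7.07 and 25.8 in beta-glucan tumours, groups that overlapped (log2 1.86 ± 0.95, adjusted p = 0.202). Cd274, the PD-1 ligand PD-L1, did not pass either (log2 0.75 ± 0.44, adjusted p = 0.277). Among effector T cell chemokines and receptors 5 of 9 rose. Cxcr3, the receptor for interferon-induced chemokines, had 305, 296, 149, 424 and 348 in combination tumours, against 0, 24.7 and 41.7 in beta-glucan tumours. That is an 18.4-fold difference (adjusted p = 0.000687), among the 15 largest rises, and 1 beta-glucan tumour held no read of it. Cxcr6 rose 7.28-fold, and Cxcl9, a ligand of Cxcr3, 3.52-fold (adjusted p = 0.000996).

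B cell genes rose as broadly, 15 of 17 tested with a median log2 fold change of 2.77, and no member fell. Cd79b, a signalling chain of the B cell receptor, had 274, 474, 228, 538 and 534 in combination tumours and 29.7, 42.5 and 183 in beta-glucan tumours. All 5 combination tumours lay above all 6 beta-glucan tumours (log2 2.77 ± 0.51, adjusted p = 0.00123). Pou2af1, a B cell coactivator, rose 11.4-fold and the inhibitory lectin Cd22 5.14-fold. Plasma cell genes included the largest named rise. Jchain, which joins IgA and IgM into polymers, had 3419, 6166, 2122, 7154 and 6405 in combination tumours, against 43.1, 199 and 1346 in beta-glucan tumours. The groups did not overlap, with every combination tumour above every beta-glucan tumour, a 24.2-fold difference (adjusted p = 0.000285). Mzb1, a chaperone of antibody secretion, was the largest named rise at 27-fold (log2 4.75 ± 0.83, adjusted p = 0.001), and Irf4, a factor of plasma cells and activated T cells, rose 7.58-fold. Of 10 plasma cell genes 7 rose and 1 fell, Sdc1 (log2 -0.79 ± 0.25, adjusted p = 0.0346); this syndecan marks plasma cells and is also made by epithelium. None of 6 germinal centre genes was called by limma (2 at an unadjusted p below 0.05) or edgeR, and 1 was by DESeq2.

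Follicle and high endothelial venule genes were mixed, with 5 of 15 higher and 2 lower. Cxcl13, the chemokine that draws B cells into follicles, had 149.8, 417, 119, 149 and 226 in combination tumours, against 11.5, 25.6 and 77.5 in beta-glucan tumours. No combination tumour lay within the beta-glucan range, and all 5 stood above it (log2 2.75 ± 0.56, adjusted p = 0.00231). Ltb, lymphotoxin beta, which organises lymphoid tissue, rose 6.1-fold (adjusted p = 0.00141). Ccr7, the lymph node homing receptor, did not pass (log2 1.74 ± 0.87, adjusted p = 0.193). The members that fell were Chst4, a sulfotransferase of venule ligands that is also made in gut epithelium (log2 -5.79 ± 0.72, a value that depends on the pseudocount, with counts of 0 to 0.834 in combination tumours and 46.7 to 174 in beta-glucan tumours), and Clu, clusterin (log2 -2.05 ± 0.39). Of 6 genes of spleen and lymph node stroma 1 rose, the complement receptor Cr2, which the B cell list also holds.

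**Figure D2:**
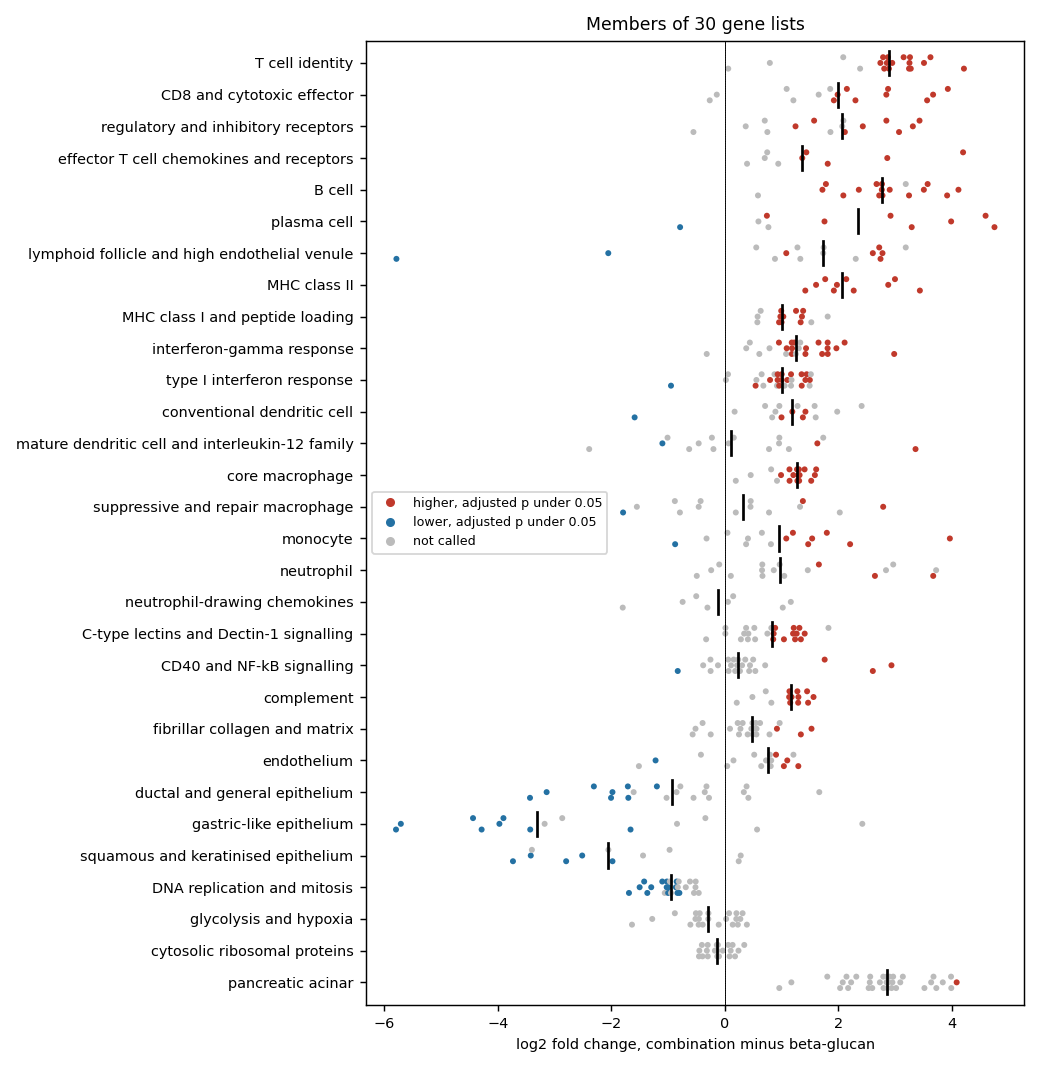
Each dot is 1 tested member of 1 of 30 gene lists, placed at its log2 fold change, combination minus beta-glucan; red and blue dots passed an adjusted p of 0.05, grey dots did not, and the black bar is the list's median. T cell, B cell and class II medians lie at 2.89, 2.77 and 2.06, and gastric-like epithelium at -3.30.

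Class I presentation and interferon genes rose by less. Of 14 class I and peptide loading genes 9 rose (median log2 1.02), of 25 interferon-gamma response genes 16 (median 1.25), and of 27 type I interferon genes 14, with 1 lower (median 1.0). Interferons act on such genes through promoter elements with paired GAAA repeats, bound by IRF proteins and by complexes of STAT proteins with IRF9. The promoters of Stat2 and Gbp5, the called members with the smallest p of their lists that hold the motif, and of B2m are shown, with GAAA, 2 bases of any kind and GAAA again, searched on both strands, in capitals. These lines give 100 bases each of the RefSeq table (GRCm38.p6, plus strand): Stat2 (chr10:128270248-128270347), Gbp5 (chr3:142496724-142496823) and B2m (chr2:122147503-122147602).
Stat2: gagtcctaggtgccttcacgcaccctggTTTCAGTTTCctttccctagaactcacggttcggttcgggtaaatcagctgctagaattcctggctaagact
Gbp5: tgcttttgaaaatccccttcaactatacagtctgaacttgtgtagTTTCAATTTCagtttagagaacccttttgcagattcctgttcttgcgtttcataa
B2m: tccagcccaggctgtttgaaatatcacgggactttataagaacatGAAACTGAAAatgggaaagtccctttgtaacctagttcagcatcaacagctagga
This motif is in 10 of the 17 interferon-gamma response promoters in the table (58.8%), 10 of 19 type I interferon promoters (52.6%) and 2 of 11 class I promoters (18.2%), against 344 of 11129 promoters of tested genes (3.09%). No class II promoter holds it in this window.

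Stat2, a shared transducer of type I interferon, had 678, 596, 539, 582 and 513 in combination tumours, against 231, 294 and 368 in beta-glucan tumours. Each combination tumour stood above the whole beta-glucan range, a 2.0-fold difference (adjusted p = 0.000513). Gbp5, an interferon-induced GTPase, had 529, 482, 434, 306 and 459.7 in combination tumours and 72.2, 150.4 and 249 in beta-glucan tumours, 3.14-fold higher (adjusted p = 0.00142). Irf8 rose 2.68-fold and the serine protease inhibitor Serpina3g 3.51-fold. Irf7, the RNA sensor Ifih1 and Ifi44 rose 2.68-fold, 1.94-fold and 2.83-fold. The type I member that fell, Isg20, an exonuclease, stood at log2 -0.95 ± 0.27 (adjusted p = 0.0222). Tap1, a transporter of peptides for class I, had 2384, 1954, 2236, 2897 and 1645 in combination tumours, against 498, 920.1 and 1292 in beta-glucan tumours (2.6-fold, adjusted p = 0.00156). B2m, the class I light chain, rose 1.94-fold, the immunoproteasome subunit Psmb10 2.39-fold and tapasin, Tapbp, 2.57-fold. With equal totals 0 of the 14 MHC class I and peptide loading genes, 1 of the 25 interferon-gamma response genes and 0 of the type I interferon response genes were called higher. Reads of the near-identical Gbp, Ifi and H2 genes may have been split between copies.

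Macrophage genes rose together by a modest factor: 14 of 18 core macrophage genes were higher, none lower, with a median log2 fold change of 1.28. Adgre1, the antigen F4/80, had 1419, 1399.6, 1041, 1605 and 1423 in combination tumours, against 360.1, 419 and 754 in beta-glucan tumours. All 5 combination tumours lay above all 6 beta-glucan tumours (log2 1.59 ± 0.24, adjusted p = 0.000373). The complement chain C1qc rose 2.43-fold, the protease Ctss 2.47-fold and Aif1, a marker of activated macrophages, 2.65-fold. State genes split. Gpnmb, of lipid-handling macrophages, had 1942, 1212, 1253, 2896 and 2173 in combination tumours and 157, 279 and 396 in beta-glucan tumours, 6.93-fold higher (adjusted p = 7.72e-05). Spp1, osteopontin, made by macrophages and tumour cells, had 5745, 7502, 7373, 1446 and 3924 in combination tumours, against 11115, 15186 and 20069 in beta-glucan tumours. The groups did not overlap, with every combination tumour below every beta-glucan tumour (log2 -1.79 ± 0.36, adjusted p = 0.00236). The suppressive and repair list as a whole held 2 higher and 1 lower of 14, and the classically activated list 3 higher of 13, among them Slamf7 (5.59-fold); Tnf did not pass (log2 0.75 ± 0.43, adjusted p = 0.267). With equal totals the median of core macrophage was 0.77 and 0 of 18 were called.

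Of 14 monocyte genes 7 rose and 1 fell. Ly6c2, a monocyte surface antigen with a near-identical neighbour, had 1727, 2499.6, 1092, 5281 and 2289 in combination tumours, against 58, 148 and 349.6 in beta-glucan tumours. No combination tumour lay within the beta-glucan range, and all 5 stood above it, a 15.6-fold difference (adjusted p = 5.68e-05). The sialoglycoprotein Spn rose 4.62-fold and the Fc receptor Fcgr4 2.77-fold, while Vcan, versican, fell by 0.88 on the log2 scale (adjusted p = 0.009). Neutrophil genes were called in 3 of 17: Ly6g rose 6.26-fold (adjusted p = 0.0296), the granule gene Ngp 12.8-fold (adjusted p = 0.0394) and S100a8 3.16-fold (adjusted p = 0.0324). These 3 calls were lost without combination tumour 1 and, separately, without combination tumours 4 and 5. None of 8 neutrophil-drawing chemokine genes was called by limma (1 at an unadjusted p below 0.05) or edgeR, and 1 was by DESeq2. Of 7 monocyte-drawing ones 1 was called, Ccl8 (4.45-fold).

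Of 14 complement genes 10 rose (median log2 1.17), with C1ra at 2.96-fold, C4b at 2.77-fold and factor B, Cfb, at 2.26-fold. None of the complement list was called with equal totals. Slpi, a secreted inhibitor of neutrophil proteases made by epithelium and macrophages, had 9672, 14686, 4306, 34184 and 9818 in combination tumours, against 376, 526 and 1150 in beta-glucan tumours. Each combination tumour stood above the whole beta-glucan range; at 19.2-fold (log2 4.26 ± 0.54, adjusted p = 0.00016) it was among the 15 largest rises.

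The receptor of beta-glucan itself did not pass the test. Clec7a, which encodes Dectin-1, had 4456, 3047, 4490.4, 1613 and 3871 in combination tumours, against 1776, 2479 and 3239 in beta-glucan tumours. The groups overlapped (log2 0.42 ± 0.30, interval -0.20 to 1.03, adjusted p = 0.379), and the sign turned to -0.088 with equal totals. Clec4e, the lectin Mincle, did not pass (log2 0.75 ± 0.49, adjusted p = 0.337). Of the 24 genes of C-type lectins and Dectin-1 signalling 11 rose, none fell, and the median log2 fold change was 0.84. Those with the smallest p encode proteins shared by many myeloid and lymphoid receptors: Plcg2 (2.49-fold), the inflammasome adaptor Pycard (2.53-fold), Rac2 (2.36-fold) and Vav1 (2.65-fold). With equal totals 0 of these 24 C-type lectins and Dectin-1 signalling genes were called.

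The target of the antibody rose. Cd40 had 236, 289, 141, 282 and 176 in combination tumours, against 40.3, 68.3 and 84.9 in beta-glucan tumours. All 5 combination tumours lay above all 6 beta-glucan tumours, a 3.39-fold difference (log2 1.76 ± 0.39, adjusted p = 0.00408). Its ligand Cd40lg, of activated helper T cells, was low throughout, with 12.9, 2.44, 12.5, 54.5 and 5.82 in combination tumours, against 0, 0 and 3.8 in beta-glucan tumours, of which 4 held no read. It was called (log2 2.94 ± 0.90, adjusted p = 0.0299), but this value depends on the pseudocount. Downstream, the list of CD40 and NF-kB signalling held 3 higher genes of 23 (Ltb, Cd40 and Cd40lg) and 1 lower, Nfkbiz (log2 -0.83 ± 0.26), and its median was 0.24. The TRAF adaptors and NF-kB subunits on the list were not called. Il12b, the shared chain of interleukins 12 and 23 and a known product of CD40-activated dendritic cells, had 52.1, 110.2, 25, 55.8 and 89.2 in combination tumours, against 0, 5.24 and 15.9 in beta-glucan tumours. The groups did not overlap, with every combination tumour above every beta-glucan tumour, a 10.3-fold difference (adjusted p = 0.00778). Cd83, a maturation marker, rose 3.1-fold (adjusted p = 0.0172). The other called member of the 16 mature dendritic cell genes, Socs2, fell by 1.10 on the log2 scale (adjusted p = 0.00135). Of 15 conventional dendritic cell genes 4 rose, among them Irf8, Clec10a (2.6-fold), Wdfy4 (2.28-fold) and Naaa (2.0-fold), and 1 fell, Cadm1 (log2 -1.59 ± 0.27), which epithelium also makes. With equal totals Cd40, Cd40lg, Nfkbiz, Cd83, Irf8, Clec10a, Wdfy4 and Naaa were no longer called. Without combination tumours 4 and 5, the calls of Il12b, Cd83, Cd40lg, Nfkbiz, Clec10a and Naaa were lost.

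Ductal and tumour epithelium was lower: 8 of 20 ductal and general epithelium genes fell, none rose, and the median log2 fold change was -0.94. Krt19, the keratin that marks pancreatic ducts, had 293, 259, 606, 183 and 120.3 in combination tumours, against 1268, 2594 and 3446 in beta-glucan tumours. No combination tumour lay within the beta-glucan range, and all 5 stood below it (log2 -3.14 ± 0.51, adjusted p = 0.000687). Krt7 had 263, 192, 910.4, 50.5 and 109 in combination tumours and 954, 2414 and 3888 in beta-glucan tumours, also without overlap (log2 -3.43 ± 0.69, adjusted p = 0.00283). Cdh1, E-cadherin, fell by 2.01 and the ductal factor Sox9 by 1.20 on the log2 scale (adjusted p = 0.000795 and 0.00243). Epcam, a pan-epithelial surface protein, did not pass (log2 -0.78 ± 0.40, adjusted p = 0.201). Krt19 was read in every tumour, at 120.3 or more in combination tumours and 1268 or more in beta-glucan tumours.

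Gastric-like genes, which mark a classical form of pancreatic cancer, fell furthest, 8 of 14 with a median log2 fold change of -3.30. Anxa10, an annexin of gastric mucosa, had 3.86, 5.48, 45, 5.31 and 1.94 in combination tumours, against 282, 400.2 and 569 in beta-glucan tumours. Each combination tumour stood below the whole beta-glucan range (log2 -5.71 ± 1.17, adjusted p = 0.0033). The stomach adhesion protein Vsig1 stood at log2 -5.80 ± 1.05, and the endodermal factors Hnf4a and Onecut2 at -3.97 ± 0.79 and -3.43 ± 0.51. Adh7, an alcohol dehydrogenase of stomach epithelium and the largest named fall, had 0, 0, 4.17, 0 and 0 in combination tumours, against 41.7, 146 and 283 in beta-glucan tumours. With 4 of 5 combination tumours at 0 reads, its log2 fold change of -6.42 ± 1.14 (adjusted p = 0.00103) depends on the pseudocount. Cldn18, a tight junction protein of stomach (log2 -5.13 ± 1.0), Otop3, a proton channel (-6.15 ± 1.04), and the imprinted gene Phlda2 (-5.93 ± 1.13) were among the 15 largest falls. The sizes for Otop3, with 4 of 5 combination tumours at 0 reads, and for Phlda2, with 2 of 5, also depend on the pseudocount (-3.76 and -4.25 with one of 8). Squamous genes fell in 5 of 11, with Krt14 at -3.73 ± 0.96 (2 of 5 combination tumours at 0 reads), Ivl, involucrin, at -3.42 ± 0.78, Krt13 at -2.80 ± 0.73 and Sprr1a at -1.98 ± 0.40; 0 of the squamous and keratinised epithelium list were called without combination tumours 4 and 5. Of 12 mesenchymal tumour genes 2 fell, Hmga2 (log2 -2.54 ± 0.45) and Cdh2 (-1.60 ± 0.50).

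Genes of DNA replication and mitosis were lower in all 25 tested, of which 14 passed, with a median log2 fold change of -0.95. Mcm7, a subunit of the replicative helicase, had 684, 453, 740.3, 482 and 471 in combination tumours, against 955, 1271 and 1349 in beta-glucan tumours. All 5 combination tumours lay below all 6 beta-glucan tumours (log2 -1.10 ± 0.20, adjusted p = 0.00103). The mitotic cyclin Ccnb1 fell by 1.37, the helicase subunit Mcm6 by 1.02 and the kinetochore protein Cenpf by 1.42 on the log2 scale. Mki67 did not pass (log2 -0.51 ± 0.25, adjusted p = 0.185). Combination tumours 4 and 5 were the lowest of their group for the list's mean level; without them 1 of the 25 DNA replication and mitosis genes was called and the median was -0.65. Their acinar share was also the highest. With the acinar level as a covariate over all tumours, Mcm7, Ccnb1, Mcm6 and Cenpf kept their calls. The part of acinar content in the lower values was not tested beyond this.

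**Figure D3:**
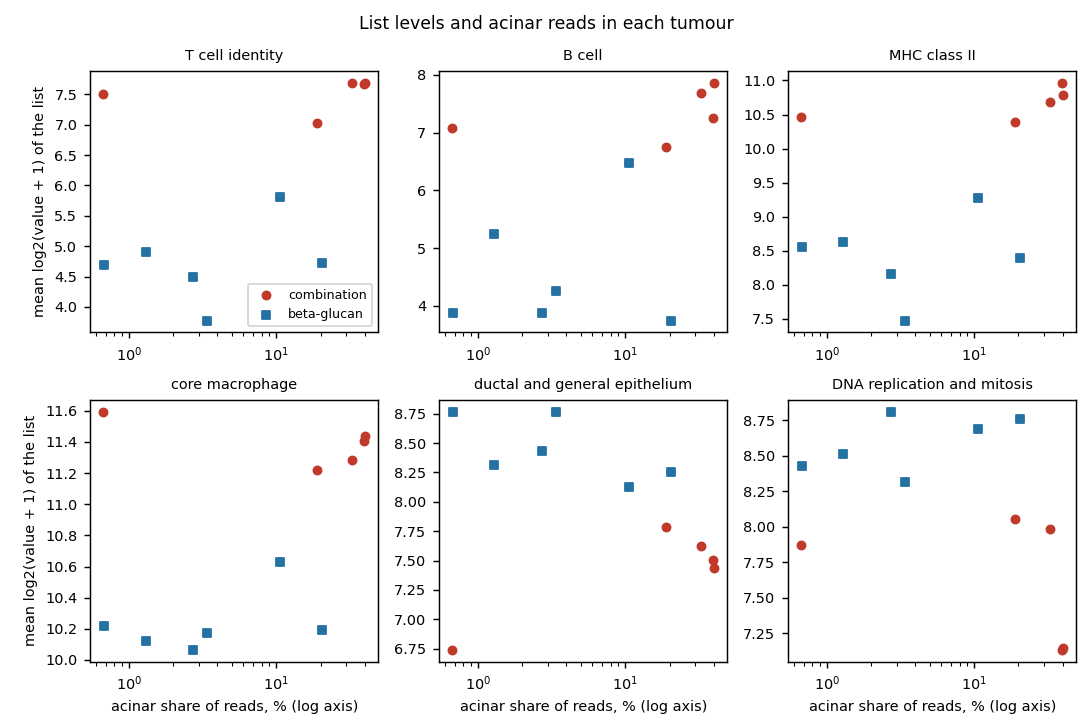
Each point is a tumour (red circles, combination; blue squares, beta-glucan), placed by the share of its reads in acinar genes (%, log axis) and the mean log2(value + 1) of 1 of 6 gene lists; vertical axes do not start at 0. The groups separate in all 6 panels, including combination tumour 1 at 0.671% acinar reads. That tumour was itself part of the calls, and the lists were chosen with earlier results known, so the separation is a description.

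Cell death genes went both ways, 3 of 19 higher and 3 lower. The ligands Fasl and Tnfsf10 (TRAIL, 3.56-fold) and Casp1, the inflammasome protease (2.3-fold), rose. Among those that fell were the TRAIL receptor Tnfrsf10b (log2 -1.13 ± 0.34) and the initiator caspase Casp8 (-0.57 ± 0.17). The calls of Tnfrsf10b, Casp8 and Casp1 were lost in 10, 11 and 7 of 29 settings. None of them was called without combination tumours 4 and 5. Of 23 collagen and matrix genes 3 rose, Loxl1, Dcn and Lum (1.89-fold, 2.88-fold and 2.53-fold), and Col1a1, the main fibrillar collagen, did not pass (log2 0.47 ± 0.27, adjusted p = 0.269; -0.036 with equal totals). Mmp2, a gelatinase, was the only one called of 19 matrix proteases and inhibitors (2.51-fold, adjusted p = 0.00845). Of 13 inflammatory fibroblast genes 2 rose (median log2 0.98). The chemokine Cxcl12 rose 3.24-fold and the pericyte gene Rgs5 2.16-fold. Of 16 endothelial genes 4 rose (median log2 0.76), Pecam1, Egfl7, Plvap and Kdr, by 2.46-fold, 2.15-fold, 2.06-fold and 1.87-fold, while Lyve1, of lymphatic vessels, fell by 1.22 on the log2 scale. With equal totals none of the rises named here for matrix, Mmp2, Cxcl12, Rgs5 and endothelium was called. Lum, Rgs5 and Lyve1 lost their calls in 16, 15 and 15 of 29 settings. Only 1 combination tumour lay above all beta-glucan tumours for Cxcl12, and 3 did for Dcn, Lum and Rgs5. None of the 22 glycolysis and hypoxia genes, 21 cytosolic ribosomal protein genes, 9 mast cell and eosinophil genes, 8 adipocyte genes, 7 nerve genes or 5 erythroid and platelet genes was called by limma, edgeR or DESeq2. At an unadjusted p below 0.05 limma gave 3, 1, 5, 2, 2 and 1, in that order of lists. Over all tested genes it gave 4054 of 14278.

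The same antibody step can be read without beta-glucan, as anti-CD40 against untreated tumours, which shares no tumour with the first comparison. Of the 926 genes higher with anti-CD40 on top of beta-glucan, 897 also had a positive log2 fold change without beta-glucan. Their median was 1.26 on top of beta-glucan and 1.47 without it. Of the 1087 lower genes, 1004 were also negative, with a median of -1.23 on top of beta-glucan and -0.70 without it. The share of all tested genes with each sign without beta-glucan was not counted, so these counts stand without a background. Across the 14278 genes the 2 sets of fold changes had a Pearson correlation of 0.689, a description, since genes are not independent. The acinar list had a median of 2.85 on top of beta-glucan and 5.05 without it. Anti-CD40 libraries held 6.33 to 21.2 M reads, and untreated libraries 7.38 to 9.34 M. The part of acinar RNA and depth in the shared signs was not tested. List medians lay close by for T cells (2.89 on top of beta-glucan, 3.20 without it) and class II (2.06 and 2.51), and were smaller on top of beta-glucan for classically activated macrophages (0.75 and 2.51) and interferon-gamma response (1.25 and 2.41). Gastric-like epithelium (-3.30 and -1.80) and DNA replication (-0.95 and -0.22) lay lower on top of beta-glucan. None of these list differences was tested as a list.

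**Figure D4:**
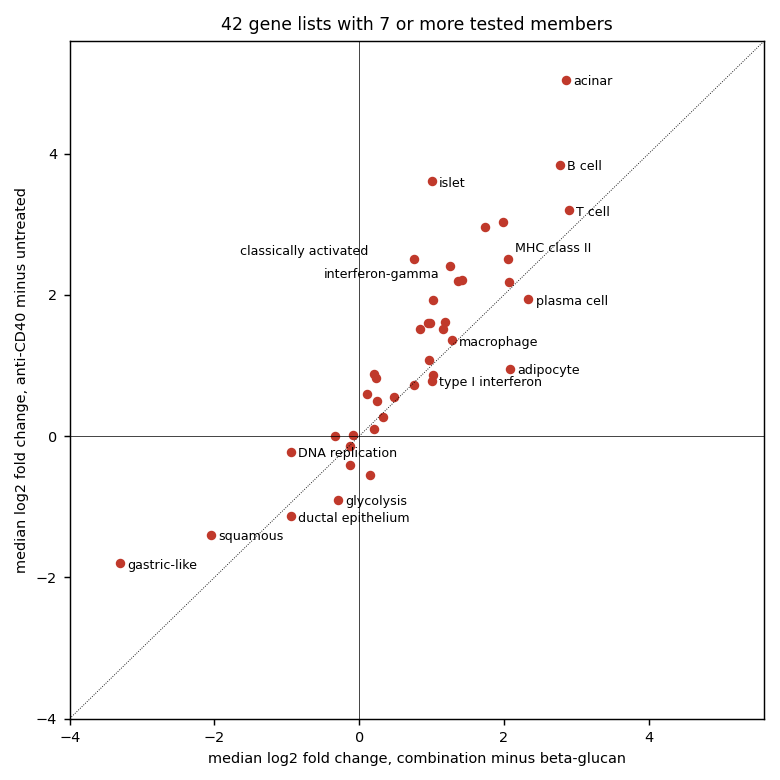
Each point is 1 of 42 gene lists with 7 or more tested members, placed by its median log2 fold change in combination minus beta-glucan (horizontal) and anti-CD40 minus untreated (vertical); the dotted line marks equal values. Of the lists with both medians above 0, 25 of 32 lie above the line, and gastric-like epithelium lies at -3.30 and -1.80.

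Tested gene by gene as an interaction, 3 of 14278 genes (0.021%) passed, and 1194 at an unadjusted p below 0.05. Tuba1a, an alpha-tubulin of growing cells and neurons, had 2824, 2294, 2691, 1339 and 1483 in combination tumours. It had 3314, 3535 and 3895 (lowest, median, highest) in beta-glucan tumours, 1826, 3019 and 4269 in anti-CD40 tumours, and 1857, 1429, 1851, 1831 and 995 in the 5 untreated tumours. It was lower in combination than in beta-glucan tumours without overlap (log2 -0.82 ± 0.22, adjusted p = 0.0147) and higher in anti-CD40 than in untreated tumours (log2 0.92 ± 0.22, adjusted p = 0.00499). Its interaction was -1.74 ± 0.31 (adjusted p = 0.0486). Dcstamp, which osteoclasts and giant cells need to fuse, had 196, 124, 318, 121 and 136 in combination tumours, 189.95, 251 and 300.9 in beta-glucan tumours, 21.7, 66.4 and 101.5 in anti-CD40 tumours, and 6.04 to 13.8 in untreated tumours. Its interaction was -2.92 ± 0.50 (adjusted p = 0.0385), with every tumour of either single agent above every untreated tumour and no call between combination and beta-glucan tumours (log2 -0.53 ± 0.36, adjusted p = 0.345). Glycam1, a mucin-like ligand made by high endothelial venules, had 44.4, 49.3, 79.2, 42.5 and 11.6 in combination tumours, 7.60, 13.6 and 32.8 in beta-glucan tumours, 29.0, 54.4 and 148.7 in anti-CD40 tumours, and 0 reads in all 5 untreated tumours. Its interaction of -4.60 ± 0.75 (adjusted p = 0.0318) depends on the pseudocount for that reason. The count of interaction genes changed with other settings, from 0 with a pseudocount of 8 to 98 with DESeq2 on the recovered reads. Whether the 98 include these 3 is not reported here.

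**Figure D5:**
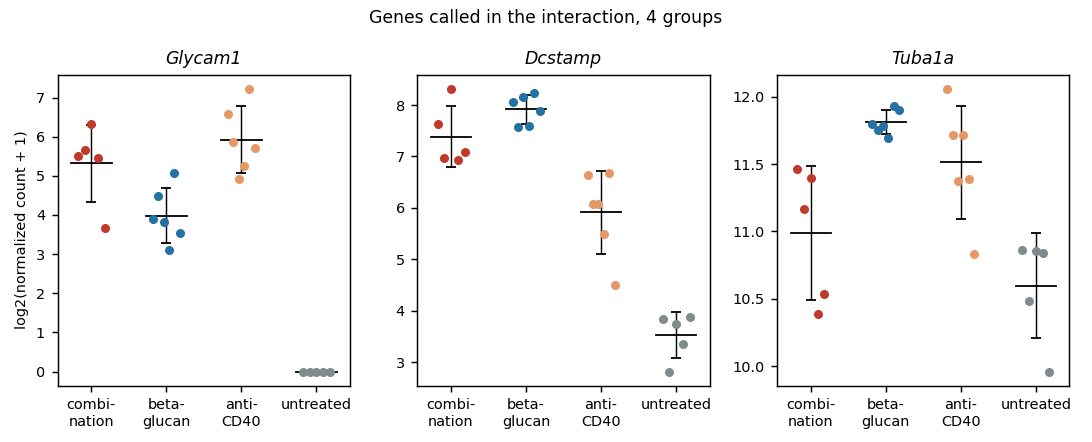
Each panel shows log2(normalized count + 1) of 1 gene in combination, beta-glucan, anti-CD40 and untreated tumours, with the group mean (line) and SD (bars); axes differ between panels. Glycam1 is at 0 in all 5 untreated tumours, and Tuba1a is lower in all 5 combination tumours than in all 6 beta-glucan tumours.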

How the data were processed

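RNA came from sections 5 µm thick of fixed, embedded tumours, and 3′ mRNA libraries were made from 100 ng, per the labels' protocols, so a value counts transcript 3′ ends, whatever the length. The submitters' processing notes name STAR, mm10 and DESeq2, without versions; how reads were counted, with which annotation and strand, is not given in the sources used here, so overlapping genes and near-identical copies are uncertain. The values are normalized counts, a signal the authors deposited for 17966 genes in 22 tumours; all 395252 were whole multiples of 1 step per tumour within 0.001 reads (100%), which gave back the reads. No tumours of a group agreed within sampling noise (lowest chi-square per degree of freedom 13.4).

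Genes at 10 or more in at least 5 tumours were tested with limma 3.58.1 (R 4.3.3, trended, robust, two-sided) on log2(value + 1), fitting a mean for each of 4 groups. The contrasts were combination minus beta-glucan, anti-CD40 minus untreated, and their difference, the interaction. Benjamini-Hochberg adjustment ran over all 14278 genes of each, with a threshold of 0.05. The limma step was also run on simulated counts with known changes, and the outcome is not reported here. Apart from the changed genes, all simulated tumours had the same mean profile. The simulation therefore does not bear on scaling or acinar reads. Of the gene symbols 17699 were in GENCODE M21 (GRCm38). The comparison, the 47 gene lists and the rule for named genes were chosen with earlier results of these data known. The rule names the 15 genes with the largest rise and with the largest fall at a mean of at least 30, up to 4 called members of each list with the smallest p, and 25 fixed genes; the text takes from these, and a few genes are not reported here. Members named for moving against their list or for filling a short count, and the interaction genes, were picked after their values were seen. Alternatives were other pseudocounts, filters, scalings, tests (edgeR 4.0.16, DESeq2 1.42.0), an acinar covariate, thinned reads, a replicate block and left-out tumours.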

Additional observations from a re-analysis of the deposited data

Results flagged for a closer look

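Chance alone puts about 1 in 20 groups of this size past the test for a tumour far from its group, and 18 of 290 sets of values (145 genes in 2 groups, on the log2 scale) were past it. In combination tumours, tumour 3 was low for Ccr7 (13.3) and Irf8 (2073) and high for Anxa10 (45.0), Adh7 (4.17) and Otop3 (18.3). Tumour 4 was high for Cd74 (32413) and low for Cd274 (163), Cdh2 (7.97) and Las1l, a ribosome biogenesis factor (260.4). In beta-glucan tumours, tumour 4 was low for Cxcr3 (0), Ccr7 (0), Irf7 (85.5), Ifi44 (39.0) and Cpa3 (0) and high for Gzmf (6.65). Tumour 5 was high for C1qc (2323) and Ctss (15927) and low for Vsig1 (103). These values are normalized counts. The pancreatic acinar share of reads was far lower in combination tumour 1 (0.671%) than in the other combination tumours.

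The limma interaction test at the main settings called Glycam1 (-4.60), Dcstamp (-2.92) and Tuba1a (-1.74). For these the difference between tumours with and without anti-CD40 differed with beta-glucan. The interaction held 0 genes with a pseudocount of 8, equal totals or quantile normalization, and 98 with DESeq2. Glycam1 had 0 reads in all untreated tumours.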

How the results depend on the processing

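Leaving out 1 tumour at a time gave 651 to 1012 genes higher, 744 to 1176 lower and 0 to 4 in the interaction. Without combination tumours 4 and 5 there were 304, 314 and 0; without beta-glucan tumours 3 and 5 the interaction held 0; without both pairs there were 425, 408 and 0 (the sets with beta-glucan tumours 3 and 5, and thinning with the authors' factors, were added after seeing the data). Equal totals gave 131 higher and 0 in the interaction, also on thinned reads (124 and 0). The interaction held 0 with a pseudocount of 8 or quantile normalization, 5 at a minimum of 50, 7 with acinar and islet genes left out before rescaling, and 98 with DESeq2. The cause was not tested. Two-group fits, TMM, edgeR, other filters and the acinar covariate kept both main counts within 1.5 times.

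Replicate numbers recur across groups, and deviations of same-numbered tumours correlated at 0.053, 0.0424, -0.177, 0.218 and 0.295. The replicate numbers are those of the titles. The column of combination tumour 5 is numbered 6. This leaves the first 4 correlations as they are and makes the last, and the block, uncertain. Combination tumours 1 to 5 correlated best with beta-glucan tumours 6, 5, 1, 4 and 5. So few values do not decide whether same-numbered tumours were paired. With a replicate block 1133 genes were higher, 1254 lower and 8 in the interaction.

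Of 132 called genes in the text, 59 kept their call in all 29 settings. Signs turned for Clec7a (-0.0879 with equal totals, -0.0941 on thinned reads), Col1a1 (-0.0356 with equal totals, -0.0336 on thinned reads, -1.15 with quantile normalization) and B2m (-0.58 with quantile normalization). The share of acinar reads, the depth that differs with treatment and the lack of stated doses in the combination label limit every value.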

Other observations

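Neighbouring protease genes on chromosome 14 (GENCODE M21, GRCm38, from Mcpt1 at 56017971 to Gzmb at 56262260) moved in opposite directions; these genes were named after their values were seen. Mcpt2, a chymase of mucosal mast cells, had 4.5, 4.26, 52.5, 0 and 6.79 in combination tumours, against 176, 545 and 1234 (lowest, median, highest) in beta-glucan tumours. The groups did not overlap, with every combination tumour below every beta-glucan tumour (log2 -6.22 ± 0.76, adjusted p = 0.000103). Its neighbour Mcpt1 stood at log2 -4.04 ± 0.62 (adjusted p = 0.000467). Mcpt8, a protease of basophils, had 12.9, 9.75, 55.9, 7.97 and 3.88 in combination tumours and 148, 261 and 390.5 in beta-glucan tumours (log2 -4.24 ± 0.52, adjusted p = 6.75e-05). Of 9 tested members of the mast cell and eosinophil list, 0 were called by limma (5 at an unadjusted p below 0.05), edgeR or DESeq2, and Cpa3, a carboxypeptidase of mast cells, had a positive value (log2 1.22 ± 0.79, adjusted p = 0.326). Among the granzymes beside them, Gzme fell (log2 -1.96 ± 0.63, adjusted p = 0.0373), while Gzmf and Gzmg were called higher (log2 4.35 ± 1.06 and 4.29 ± 0.99). The Gzme call was lost in 12 of 29 settings, among them edgeR and the acinar covariate. Gzmc and Gzmd, also tested, were not called (log2 0.61 and 0.77). In beta-glucan tumours 4 of 6 held no read of Gzmf and 3 of 6 none of Gzmg, so the sizes depend on the pseudocount: with one of 8 they were 2.18 (adjusted p = 0.0779, no longer called) and 2.40. Gzmf and Gzmg are near-identical, so reads may have been split between them.

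Lists put together after the data were seen describe other groups, with no test as lists. All 22 ribosome biogenesis genes had negative fold changes and 10 fell (median log2 -0.65), among them Nop58, a core protein of small nucleolar RNPs, with 491, 479, 615, 284 and 471 in combination tumours, against 1007, 1097 and 1232 in beta-glucan tumours (log2 -1.28 ± 0.19, adjusted p = 0.000345). Utp4 and Las1l stood at log2 -1.22 ± 0.19 and -1.13 ± 0.16. Of 21 cholesterol synthesis genes 20 were negative and 8 fell (median -0.74), including Cyp51 (log2 -1.42 ± 0.25) and Msmo1 (-1.37 ± 0.24), enzymes of the later sterol steps. Of the 8 GIMAP genes, GTPases of lymphocytes, 7 rose (median 2.10), with Gimap4 at 4.28-fold and Gimap3 at 7.04-fold.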
